A study of Homo sapiens with 6 samples.

Results

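The genes described here are the amino acid transporter families SLC1, SLC3, SLC6, SLC7, SLC36, SLC38 and SLC43. They were taken by symbol, as every row of the deposited table that starts with a family name and a member number, so no measured value chose them. The rule matched 63 of 23368 rows. Of these, 59 encode transporters or their heavy chains. The other 4 rows are the pseudogenes SLC6A10P, SLC7A5P1 and SLC7A5P2, and SLC7A6OS, a gene named for lying opposite SLC7A6 that does not encode a transporter. RNA was sequenced from H2122, a human lung adenocarcinoma cell line, 48 hours after transfection with an shRNA. The first group, of 3 libraries, received a control shRNA. The second, also of 3, received a LYCAT shRNA. LYCAT is the former symbol for LCLAT1, which encodes an acyltransferase of phospholipids. The labels give no shRNA sequence. Whether replicates were grown as separate cultures is not labelled either, and p-values therefore measure only library-to-library spread, which could be technical. Effects of losing LCLAT1 cannot be told apart from other effects of this shRNA, nor, in bulk RNA, can fewer cells of a kind from less RNA per cell.

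Amino acids cross the plasma membrane and the lysosomal membrane through carriers such as these. Some carriers couple uptake to sodium or protons and concentrate their substrates. Others are exchangers, which let 1 amino acid in only as another leaves, so the carriers of a cell work as a network. Several SLC7 exchangers reach the surface only when bound to a heavy chain of the SLC3 family. Tumour cells are known for high levels of the cystine carrier xCT, of the leucine carrier LAT1 and of the glutamine carrier ASCT2. The transcription factor ATF4, which acts when amino acids run short, is known to induce a part of these genes.

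Library totals were 3118946 to 4930079 counts. LCLAT1 fell in the LYCAT shRNA libraries, from 61.1 ± 4.23 to 21.7 ± 2.45 CPM (counts per 1000000 of the TMM-scaled library size; SD, n = 3 each; log2 -1.50, edgeR adjusted p = 1.15e-18). Of 11097 genes abundant enough to test, 19.1% changed at an edgeR quasi-likelihood adjusted p under 0.05, 9.81% upward and 9.26% downward. The groups did not overlap in CPM for 32.8% of all tested genes. The 7 epithelial markers of the line summed to 1680 to 1748 CPM in controls and 1538 to 1588 CPM with LYCAT shRNA, with 3 of 6 tested lower. Of 13 markers of fibroblasts, endothelium and blood, 4 had no count, among them PECAM1 and PTPRC. This second list summed to 85.7, 128.5 and 30.8 CPM in control libraries 1 to 3 and to 37.4, 18.7 and 31.1 CPM in LYCAT shRNA libraries 1 to 3. Nearly all of it was the collagens COL1A1, COL1A2 and COL3A1. COL1A1 alone read 59.4, 82.7 and 28.3 CPM in controls and 25.9, 16.4 and 22.9 CPM with LYCAT shRNA. The other fibroblast markers had few counts over all libraries (DCN 1, PDGFRB 10 and LUM 40). The endothelial and blood markers had 0 to 2 counts each over all libraries. In collagen RNA control libraries 1 and 2 thus stood above the other 4, which does not mean that they stood apart over all genes. The part of either marker list in the results that follow was not tested, and counts are also given without these libraries.

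With LYCAT shRNA, transporters fell more often than they rose. Of the 23 transporters and heavy chains abundant enough to test, 9 fell, 2 rose and 12 did not pass, and the groups did not overlap for 14. That is 47.8% changed and 39.1% lower, where 19.1% and 9.26% of all tested genes were. A small change passes more easily in a gene with many counts, and these shares were not matched for abundance. These 23 are not all the members: 15 more had counts too low to test, and 21 had no count in any library. Among the 9 that fell, SLC1A4 and SLC6A9 met the filter on low counts through their control libraries, which favours a fall. The median log2 fold change of the 23 was -0.12, against -0.0057 over all tested genes. Most changes were small, with 8 of the 11 under 1.5-fold. Without control libraries 1 and 2, a setting chosen after seeing the data, 7 fell and 1 rose; the lone control library is there assumed to vary like the others. All 59 together summed to 3057, 2941 and 3056 CPM in controls, against 2652.5, 2708 and 2596 CPM with LYCAT shRNA, without overlap. Highly counted genes among the 9 that fell, such as SLC7A11, SLC3A2 and SLC1A5, carry this sum. It therefore largely repeats their falls and adds no support.

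**Figure D1:**
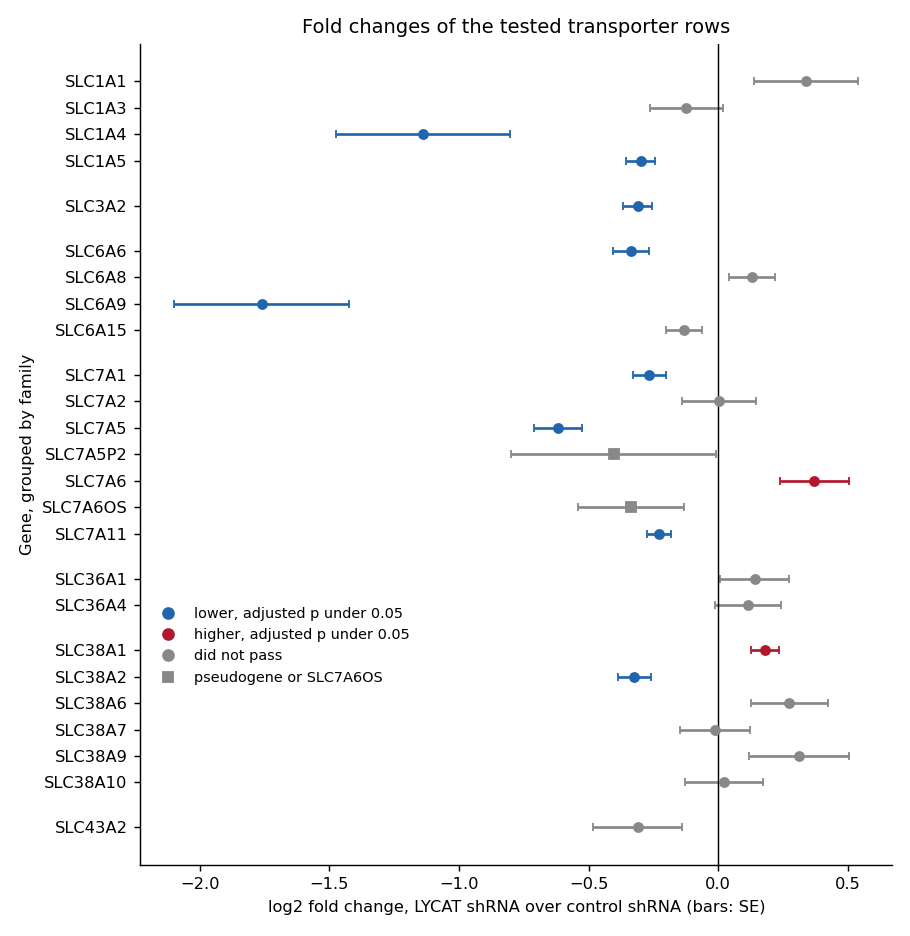
Log2 fold change of the 25 tested rows (x axis, LYCAT shRNA over control shRNA, bars are SE), grouped by family on the y axis and coloured by call. SLC6A9 and SLC1A4 lie farthest left, at -1.76 and -1.14, with wide errors, and SLC7A6 and SLC38A1 are the members that rose.

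SLC3A2 encodes 4F2hc, the heavy chain that brings LAT1, xCT and the y+LAT carriers to the plasma membrane. Controls read 293, 306 and 299 CPM, and LYCAT shRNA libraries 248.8, 225 and 248.7 CPM. Every LYCAT shRNA library lay below every control library. The mean went from 299.6 ± 6.63 to 241 ± 13.7 CPM (SD, n = 3 each), a fall of 1.24-fold (log2 -0.31, SE 0.0551, edgeR adjusted p = 9.65e-06). SLC3A1, which encodes rBAT, the heavy chain of the renal cystine carrier, had no count in any library. A count of 0 allows up to 0.609 to 0.962 CPM per library (3 counts, counting error only).

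The light chain that carries large neutral amino acids had the clearest change. SLC7A5 encodes LAT1, the exchanger that brings in leucine, phenylalanine and other large neutral amino acids. Controls read 93.2, 70.1 and 81.0 CPM, against 54.9, 54.5 and 49.98 CPM with LYCAT shRNA. The control libraries differed among themselves, yet the lowest of them was above all 3 LYCAT shRNA libraries. The mean of 81.5 ± 11.6 CPM became 53.1 ± 2.72 CPM, a 1.53-fold fall (edgeR adjusted p = 2.21e-07, log2 -0.62, SE 0.0924). This was the smallest adjusted p among the members. Its pseudogene SLC7A5P2, whose reads can be split with SLC7A5 in counting, stood at 2.46 to 3.24 CPM in controls and 1.93 to 2.34 CPM with LYCAT shRNA and did not pass (log2 -0.40, edgeR adjusted p = 0.537). SLC7A5P1 had no count.

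SLC7A11 encodes xCT, the exchanger that imports cystine for glutathione synthesis and exports glutamate. It was the most counted member, with 36.8% of the summed CPM of the 59 genes in controls and 35.8% with LYCAT shRNA. Its CPM were 1095, 1079.6 and 1154 in the control libraries and 975, 1011 and 861 in the LYCAT shRNA libraries. The groups did not overlap, but the highest LYCAT shRNA library came within a short distance of the lowest control library. SLC7A11 fell 1.17-fold, with means of 1109.7 ± 39.3 and 949 ± 78.2 CPM (edgeR adjusted p = 0.000141, log2 -0.23, SE 0.0462).

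Among carriers of arginine and lysine, the members went different ways. SLC7A1 encodes CAT1, the main uptake route for arginine in many cells. It read 166, 177 and 184 CPM in controls and 148, 140.3 and 148 CPM with LYCAT shRNA, so that all LYCAT shRNA libraries were lower. Its fall was 1.20-fold (log2 -0.27, SE 0.0634, edgeR adjusted p = 0.0011). SLC7A6 encodes y+LAT2, a light chain of SLC3A2 that exports arginine in exchange for neutral amino acids such as glutamine. It was higher in every LYCAT shRNA library, at 27.9, 26.4 and 27.8 CPM against 20.1, 22.5 and 20.9 CPM in controls. SLC7A6 rose 1.29-fold (log2 0.37, SE 0.133, edgeR adjusted p = 0.0396). It passed only narrowly: the call was lost with DESeq2 (adjusted p = 0.17) and with control libraries 1 and 2 left out (edgeR adjusted p = 0.1996). Leaving out any library but control library 2 also ended it (edgeR adjusted p = 0.0594 to 0.119). SLC7A6OS, on the opposite strand, read 10.9 to 11.6 CPM in controls and 8.41 to 9.35 CPM with LYCAT shRNA and did not pass (log2 -0.34, edgeR adjusted p = 0.267). How strand entered the counting is not known here, so reads where SLC7A6OS and SLC7A6 overlap could not be told apart. SLC7A2, which encodes the cationic carrier CAT2, read 19.9 to 25.5 CPM in controls and 19.7 to 25.2 CPM with LYCAT shRNA (log2 0.0015, 95% interval -0.28 to 0.28).

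**Figure D2:**
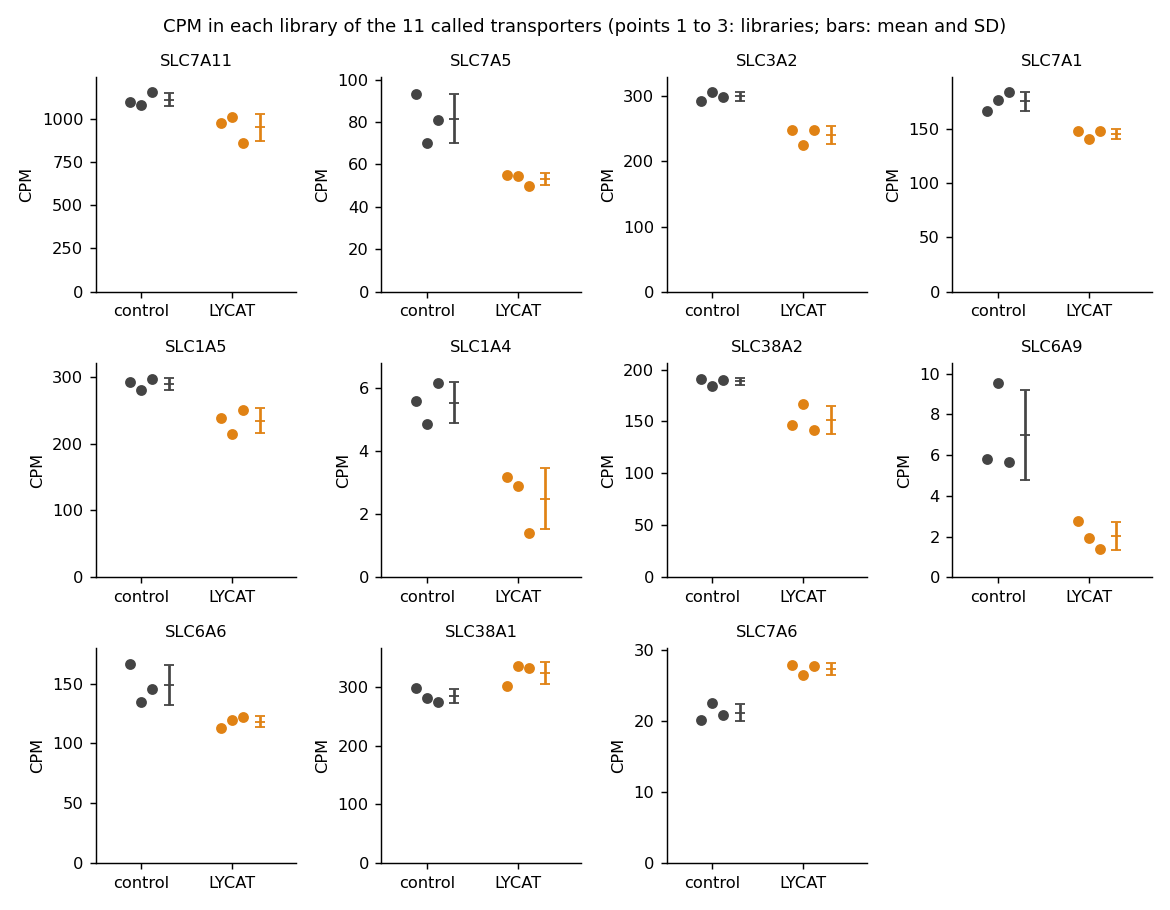
CPM (y axis, from 0) of the 11 transporters that changed, with 1 point per library, control shRNA in grey and LYCAT shRNA in orange, and the mean and SD beside them. In each of the 11 panels the groups do not overlap, and SLC1A4 and SLC6A9 stand below 10 CPM throughout.

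Promoters of these genes were searched for a pair of short motifs, in windows from 250 bases before to 50 bases after each start (RefSeq, GRCh38.p14; both strands). TGATGCAA is a spelling of the composite element that ATF4 binds with C/EBP proteins, and TGACNNNGC is the core of the antioxidant response element, which NRF2 binds. The motifs shared no base in any window of a tested member. Of all 27305 genes in the RefSeq promoter table, 1.08% held TGATGCAA and 16.1% held TGACNNNGC in at least 1 window. Of their 35116 windows, 0.866% held TGATGCAA and 13.3% held TGACNNNGC. For the tested rows 20 were matched, with 35 windows. That is more windows per gene than in the whole table, which gives more places for a match. SLC7A11, SLC6A6, SLC6A15, SLC7A2 and SLC7A5P2 were not matched. TGACNNNGC was found for 4 of 7 members that fell (SLC3A2, SLC7A5, SLC7A1 and SLC1A5), 1 of 2 that rose (SLC7A6) and 1 of 11 rows that did not pass (SLC1A3). TGATGCAA was found for 2 of 7, 0 of 2 and 1 of 11. A match is a description of letters and shows no binding. The TGACNNNGC core of SLC3A2 and of 3 SLC7 genes is shown here in capitals within 30 bases, 5′ to 3′ on the gene's strand. The matches of SLC1A5 and SLC1A3 are not printed. Those shown lie at chr11:62881652-62881681 (+) for SLC3A2, chr16:87869490-87869519 (-) for SLC7A5, chr13:29595754-29595783 (-) for SLC7A1 and chr16:68264487-68264516 (+) for SLC7A6.
SLC3A2: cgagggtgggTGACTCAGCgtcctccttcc
SLC7A5: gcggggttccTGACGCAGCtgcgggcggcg
SLC7A1: tgcccggcggTGACGCGGCcgagcgggccg
SLC7A6: cggcggcgggTGACGTGGCggggcggggcc
The match began 37 bases before the start in SLC3A2, 2 before it in SLC7A5, 85 in SLC7A1 and 29 in SLC7A6, which held a second match 197 bases before. The first 3 genes fell and the last rose, so the core was present on both sides. The SLC3A2 stretch from 150 bases before that start up to the start itself, chr11:62881549-62881699 (+), is shown for its context, since xCT, LAT1 and y+LAT2 all depend on this heavy chain.
SLC3A2 promoter: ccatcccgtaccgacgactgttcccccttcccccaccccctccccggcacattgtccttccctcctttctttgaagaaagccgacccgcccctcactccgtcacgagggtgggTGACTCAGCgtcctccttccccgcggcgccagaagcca

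The sodium-coupled SLC1 family splits by substrate into exchangers of small neutral amino acids and carriers of glutamate and aspartate. Both tested exchangers fell, and neither tested glutamate carrier passed. SLC1A5 encodes ASCT2, which takes up glutamine, and read 293, 279.7 and 297 CPM in controls against 239, 214 and 250.1 CPM with LYCAT shRNA. The groups were apart, and LYCAT shRNA library 2 was lowest. The 1.23-fold fall of SLC1A5 took it from 289.7 ± 8.92 to 234 ± 18.4 CPM (edgeR adjusted p = 3.33e-05, log2 -0.30, SE 0.0565). SLC1A4 encodes ASCT1, an exchanger of serine, alanine and cysteine, and was rare. It had 26, 24 and 25 counts in controls and 15, 9 and 6 with LYCAT shRNA. In CPM this was 5.57, 4.86 and 6.16 against 3.19, 2.90 and 1.40. It met the filter on low counts through the controls, which favours a fall. SLC1A4 fell 2.202-fold (log2 -1.14, SE 0.337, edgeR adjusted p = 0.00991), a size that the low counts leave imprecise. It did not pass with DESeq2 (adjusted p = 0.0801), without LYCAT shRNA replicate 3 (edgeR adjusted p = 0.128, log2 -0.83) or without control libraries 1 and 2 (edgeR adjusted p = 0.0737).

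The glutamate carriers of the family are known by their EAAT names. SLC1A3, or EAAT1, read 20.9 to 24.9 CPM in controls and 18.7 to 22.4 CPM with LYCAT shRNA, and the groups overlapped (log2 -0.12, edgeR adjusted p = 0.61). SLC1A1, or EAAT3, which also carries cysteine, read 7.90 to 11.6 CPM in controls and 9.997 to 14.2 CPM with LYCAT shRNA (log2 0.34, 95% interval -0.05 to 0.73, edgeR adjusted p = 0.253). Its interval holds changes as large as those of members that passed. The remaining members were not tested: SLC1A2 had 1 count in all, and SLC1A6 and SLC1A7 had 0.

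All 3 members whose windows held TGATGCAA were of the SLC1 family: the exchangers SLC1A4 and SLC1A5, which fell, and SLC1A3, which did not pass. The motif is in capitals in the 30 bases around it, at chr2:64989381-64989410 (+) for SLC1A4, chr19:46784893-46784922 (-) for SLC1A5 and chr5:36596357-36596386 (+) for SLC1A3. In SLC1A4 it lies on the opposite strand and so reads TTGCATCA.
SLC1A4: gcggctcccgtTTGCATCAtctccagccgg
SLC1A5: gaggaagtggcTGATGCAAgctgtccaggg
SLC1A3: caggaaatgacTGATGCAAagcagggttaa
These genes have several annotated starts, and the match began 7, 97 and 220 bases before 1 of them, in the same order. For SLC1A4, the member with the larger fall, the stretch from 150 bases before that start up to it is chr2:64989249-64989399 (+).
SLC1A4 promoter: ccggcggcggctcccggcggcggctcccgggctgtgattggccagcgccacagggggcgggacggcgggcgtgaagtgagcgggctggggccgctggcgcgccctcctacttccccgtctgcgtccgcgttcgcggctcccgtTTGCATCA

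The SLC38 family carries glutamine, alanine and other small neutral amino acids with sodium, and its leading members moved in opposite directions. SLC38A2 encodes SNAT2, a carrier that cells are known to raise when amino acids are scarce. It read 191, 184 and 190.4 CPM in controls and 146, 166 and 142 CPM with LYCAT shRNA, without overlap. The mean of SLC38A2 fell 1.25-fold, 189 ± 3.61 CPM becoming 151 ± 13.1 CPM (edgeR adjusted p = 6.63e-05, log2 -0.32, SE 0.0635). SLC38A1 encodes SNAT1, a close relative with similar substrates. It was higher with LYCAT shRNA, at 302, 336 and 333 CPM, than in controls, at 299, 281 and 275 CPM, though the nearest libraries of the groups were almost level. SLC38A1 rose 1.13-fold (log2 0.18, SE 0.0541, edgeR adjusted p = 0.0118). The call ended when control library 3 was left out (edgeR adjusted p = 0.0602), and likewise for LYCAT shRNA libraries 2 and 3 (0.0808 and 0.0818). The summed CPM of the 11 genes of the family overlapped between the groups, at 538 to 560.1 in controls and 522 to 579.8 with LYCAT shRNA.

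Other members of the family did not pass. SLC38A9, a lysosomal carrier that reports arginine to the kinase complex mTORC1, read 8.31 to 12.6 CPM in controls and 11.6 to 14.2 CPM with LYCAT shRNA (log2 0.31, edgeR adjusted p = 0.282). SLC38A6 read 18.4 to 18.6 CPM in controls and 19.99 to 26.2 CPM with LYCAT shRNA, where the groups were apart but the fit did not pass (log2 0.27, edgeR adjusted p = 0.198). SLC38A7, which carries glutamine out of lysosomes, stood at log2 -0.012 (edgeR adjusted p = 0.966). SLC38A10 stood at 0.02 (edgeR adjusted p = 0.942), and both of these changed sign when some libraries were left out. SLC38A5 had 1 count in all, and SLC38A3, SLC38A4, SLC38A8 and SLC38A11 had none.

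SLC6 carriers take up glycine, taurine, creatine, neutral amino acids and neurotransmitters with sodium and chloride. Of 19 members 4 were abundant enough to test, and 10 had no count. SLC6A9 encodes GlyT1, a glycine carrier, and had the largest fall of the tested members. Controls held 27, 47 and 23 counts and LYCAT shRNA libraries 13, 6 and 6. In CPM it read 5.79, 9.53 and 5.66 against 2.76, 1.93 and 1.40. The controls spread widely, with library 2 highest, and all lay above the LYCAT shRNA libraries. SLC6A9 met the filter on low counts through these controls, which favours a fall. The group means were 6.99 ± 2.19 and 2.03 ± 0.687 CPM, a 3.39-fold fall of SLC6A9 (edgeR adjusted p = 4.07e-05, log2 -1.76, SE 0.336) and a size made imprecise by the low counts. Without control libraries 1 and 2 it did not pass (log2 -1.44, edgeR adjusted p = 0.0586).

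SLC6A6 encodes TauT, the carrier of taurine, an osmolyte. It read 167, 134 and 146 CPM in controls and 113, 120.0 and 122 CPM with LYCAT shRNA, without overlap. SLC6A6 fell 1.26-fold, its means being 149 ± 16.4 and 118 ± 4.85 CPM (edgeR adjusted p = 0.000196, log2 -0.34, SE 0.0703). The creatine carrier SLC6A8 read 57.0 to 59.4 CPM in controls and 61.9 to 68.0 CPM with LYCAT shRNA and did not pass (log2 0.13, edgeR adjusted p = 0.345), although the groups did not overlap. SLC6A15, or B0AT2, a carrier of branched-chain amino acids and proline, read 137 to 164 CPM in controls and 129.6 to 142 CPM with LYCAT shRNA (log2 -0.13, 95% interval -0.27 to 0.0034, edgeR adjusted p = 0.185). The carriers of noradrenaline, dopamine and serotonin (SLC6A2, SLC6A3 and SLC6A4) had 1 count between them.

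Members of the last families did not pass. SLC36 carriers move small amino acids with protons, SLC36A1 (PAT1) in large part out of lysosomes. SLC36A1 read 22.7 to 24.0 CPM in controls and 22.8 to 30.6 CPM with LYCAT shRNA, and SLC36A4 (PAT4) 23.4 to 30.5 and 27.4 to 30.2 CPM, with log2 fold changes of 0.14 and 0.12 (edgeR adjusted p = 0.528 and 0.588). SLC36A2 and SLC36A3 had no count. SLC43A2, or LAT4, which lets large neutral amino acids pass without exchange, read 19.1, 15.8 and 14.53 CPM in controls and 12.5, 12.9 and 14.48 CPM with LYCAT shRNA. The groups were only just apart, and it did not pass (log2 -0.31, 95% interval -0.65 to 0.03, edgeR adjusted p = 0.218).

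Of the 38 rows too low to test, 4 had 20 or more counts over the 6 libraries, and the other 12 that were counted had 1 to 6. SLC7A8, or LAT2, a relative of LAT1, had 15, 19 and 3 counts in the control libraries and 7, 2 and 4 with LYCAT shRNA. SLC7A7, or y+LAT1, had 6, 10 and 1 against 1, 1 and 3. SLC43A1, or LAT3, had 4, 8 and 1 against 6, 2 and 3, and the arginine carrier SLC7A3 had 13, 3 and 1 against 1, 0 and 3. In each of these 4 genes control library 3 had the fewest counts of the controls. The sum of the fibroblast, endothelial and blood markers, nearly all of it collagen RNA, was likewise highest in control libraries 1 and 2. It stood at 85.7 and 128.5 CPM there against 18.7 to 37.4 CPM elsewhere, and its part in these counts was not tested. Without control replicate 3, its lowest control, SLC7A8 was abundant enough to test and passed as lower (log2 -1.69, edgeR adjusted p = 0.0117). The high counts of control libraries 1 and 2 both admitted the gene and set its fall, so this call is no support for a fall. SLC7A8 was also tested without each LYCAT shRNA library and did not pass (edgeR adjusted p = 0.0903 to 0.186).

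Read by substrate rather than by family, falls were spread over several classes. Most classes had only 1 or 2 tested members, and of all tested genes 9.26% fell and 9.81% rose. Each gene was put in 1 class only, so a substrate such as glycine can also be carried by members of other classes. The single tested members of the cystine-glutamate class and of the glycine and proline class fell. So did the heavy chain SLC3A2 and both tested exchangers of small neutral amino acids. Of carriers of large neutral amino acids 1 of 2 fell, and of those for taurine, creatine and related compounds 1 of 2. The 1 tested carrier of broad neutral substrates with sodium, SLC6A15, did not pass. For cationic amino acids 1 of 3 fell and 1 rose, and among the SNAT carriers 1 of 6 fell and 1 rose. None of 2 carriers of glutamate and aspartate passed with edgeR, nor of 2 proton-coupled carriers; at an unadjusted p under 0.05 the count was also 0. The summed CPM of the 4 large neutral carriers went from 116, 91.4 and 96.5 in controls to 70.2, 68.7 and 66.1 with LYCAT shRNA, 0.673 of the control mean. SLC7A5 made up most of that sum, with group means of 81.5 and 53.1 CPM, so the sum largely repeats this gene. For the 6 acidic carriers the groups overlapped, at 28.8 to 36.4 and 29.02 to 36.7 CPM.

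Of the 9 carriers that fell, 8 are known to be induced by ATF4. ATF4 itself stood at 517, 618 and 556 CPM in controls and at 313, 300.2 and 308 CPM with LYCAT shRNA (log2 -0.88, edgeR adjusted p = 4.01e-23). From general knowledge 8 members were set down as ATF4-induced: SLC7A11, SLC7A5, SLC3A2, SLC1A4, SLC1A5, SLC7A1, SLC38A2 and SLC6A9. All 8 were tested and all 8 fell, with a median log2 fold change of -0.32. SLC1A4 and SLC6A9 reached the filter on low counts through their higher control libraries. That favours a fall, so these genes add little to the count. Of all tested genes 9.26% fell, and their median was -0.0057. Of the 15 other tested transporters 1 fell (SLC6A6), 2 rose and 12 did not pass, with a median of 0.12. The fall of ATF4 and earlier results of these data were known when this list was written, so its count is no independent evidence. No test was made of the list, and the part of ATF4 in these falls was not tested. Leaving out libraries lowered the count of 8 to 7 without LYCAT shRNA replicate 3, and to 6 without control libraries 1 and 2. DESeq2 called 7, and 6 were called with a mean of at least 5 CPM, a filter that removes SLC1A4 and SLC6A9.

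**Figure D3:**
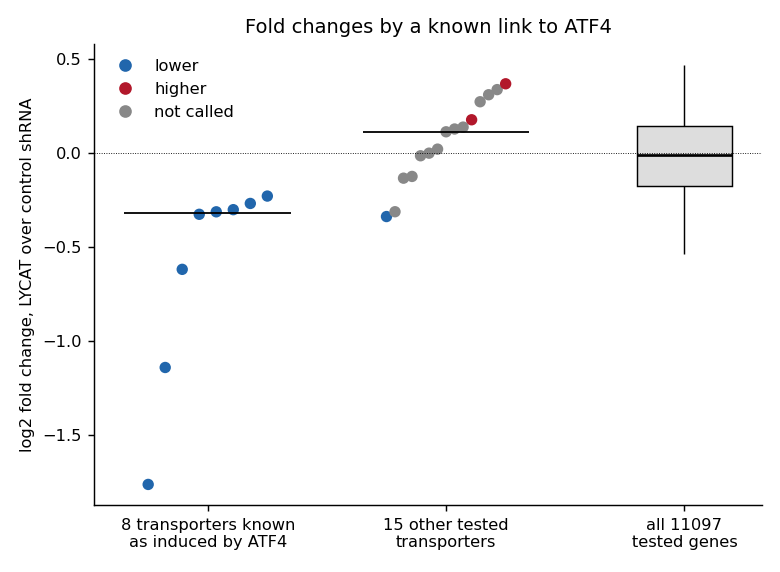
Log2 fold changes (y axis) of the 8 transporters known as ATF4-induced and the 15 others, each point 1 gene coloured by call and lines at the medians, beside all 11097 tested genes (box from the 25th to the 75th percentile, whiskers from the 5th to the 95th). All 8 lie below -0.17, the 25th percentile of all genes, and the others spread around 0. The list of 8 was written with earlier results of these data known.

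Levels of different genes were compared per length, as counts per kilobase of the longest annotated transcript, scaled to a common sum in each library. By this measure the control order began with SLC3A2 (338 ± 5.38), SLC7A11 (289 ± 9.42) and SLC1A5 (252 ± 8.52). These 3 levels were apart beyond their SDs, but an SD over libraries does not cover the choice of transcript. The lengths used were 2222 bases for SLC3A2, 9645 for SLC7A11 and 2882 for SLC1A5. In CPM the control mean of SLC7A11 was the highest, at 1109.7 against 299.6 for SLC3A2. The order therefore depends on the lengths, and a shorter main transcript of SLC7A11 could reverse it. SLC38A2 (96.8 ± 2.43) and SLC38A1 (88.7 ± 4.58) followed, and with LYCAT shRNA their order was the reverse, at 76.4 ± 6.9 and 98.8 ± 5.5. SLC6A15 (75.3 ± 8.74) came next. SLC7A1 (59.9 ± 2.49) and SLC6A6 (57.3 ± 6.82) did not differ beyond their spread, and SLC7A5 (45.1 ± 6.77) and SLC6A8 (39.0 ± 1.11) came after them. With LYCAT shRNA SLC6A8 (42.1 ± 2.33) stood above SLC7A5 (28.9 ± 1.62). SLC1A4 was the lowest of the 23 tested transporters in both groups, at 2.40 ± 0.28 and 1.07 ± 0.413.

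**Figure D4:**
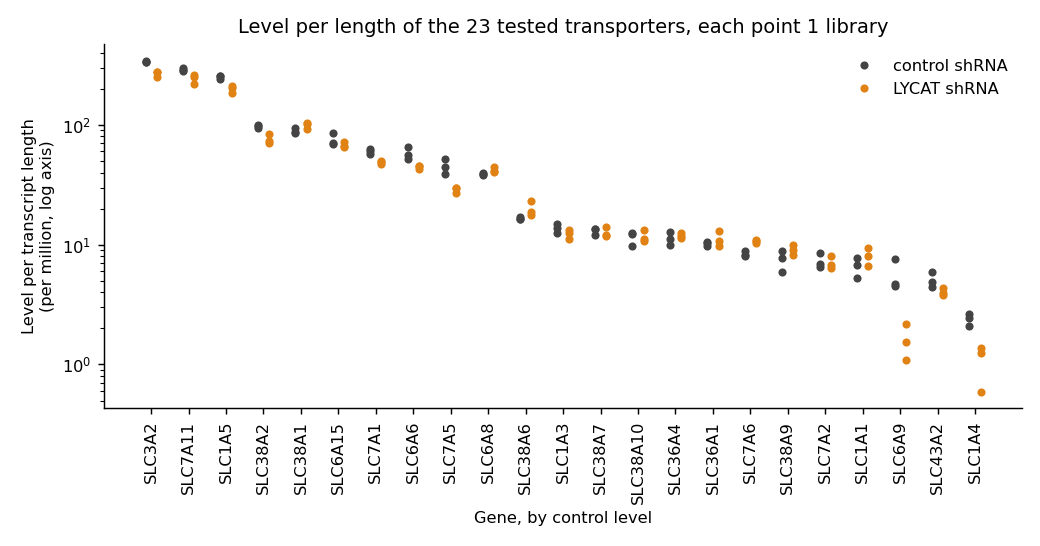
Level per transcript length (log axis, scaled to a common sum per library) of the 23 tested transporters in each library, ordered by control mean, control shRNA in grey and LYCAT shRNA in orange. SLC3A2, SLC7A11 and SLC1A5 lead in both groups, and SLC6A9 and SLC1A4 show the widest gaps between the groups.

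Per length, light chains were set against their heavy chain within each library, as a description. The size of each ratio depends on the transcript lengths used, while its comparison between the groups does not. The ratio of SLC7A11 to SLC3A2 was 0.861, 0.812 and 0.889 in controls and 0.903, 1.03 and 0.798 with LYCAT shRNA, so the groups overlapped. For SLC7A5 over SLC3A2 they overlapped too, at 0.156, 0.112 and 0.133 against 0.108, 0.119 and 0.0984. SLC7A6 over SLC3A2 was 0.0242, 0.0259 and 0.0246 in controls and 0.0394, 0.0414 and 0.0394 with LYCAT shRNA. This last ratio was higher in all 3 LYCAT shRNA libraries. In each of them SLC7A6 was higher and SLC3A2 lower than in every control library. The ratio thus only restates these changes, and the call of SLC7A6 passed narrowly. SLC7A6 remained a small part of the light chain RNA.

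Amino acid carriers outside these families, in mitochondria, lysosomes and vesicles, gave no call of a fall. Of 15 tested 3 rose and 12 did not pass, with a median log2 fold change of 0.22. SLC15A4, a lysosomal carrier of histidine and peptides, rose 1.31-fold (log2 0.39, edgeR adjusted p = 0.0315). SLC25A13, the mitochondrial aspartate-glutamate carrier citrin, rose by log2 0.22 with overlapping groups and MFSD12, needed for cysteine import into lysosomes, 0.24 (edgeR adjusted p = 0.0355 and 0.0393). The share that changed, 20%, was close to the 19.1% of all tested genes.

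Genes that report amino acids to mTORC1, the kinase complex that drives growth, changed at 17.1%, near the share of all genes. Of 35 tested 5 rose, 1 fell and 29 did not pass. SESN2 and SESN1 encode sestrins, leucine sensors and inhibitors of this pathway, and went opposite ways. SESN2, which ATF4 is known to induce, read 46.5, 43.8 and 44.6 CPM in controls and 30.4, 34.8 and 28.5 CPM with LYCAT shRNA (log2 -0.54, edgeR adjusted p = 0.000146). SESN1, a p53 target, read 6.86, 4.66 and 7.63 CPM in controls and 13.2, 11.6 and 13.8 CPM with LYCAT shRNA (log2 1.03, edgeR adjusted p = 0.000202). RHEB, the activator of mTORC1, and RRAGC, a Rag GTPase, rose by log2 0.24 and 0.42 (edgeR adjusted p = 0.0032 and 0.00814). NPRL2 rose by log2 0.32 with overlapping groups (edgeR adjusted p = 0.0408), and HBXIP, of the Ragulator complex, by 0.17 (edgeR adjusted p = 0.04997).

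Of 8 tested partner proteins of the transporters 1 rose and 7 did not pass, so 12.5% changed where 19.1% of all tested genes did. CD44 is a surface protein, a form of which is known to stabilise xCT, and counts per gene do not tell its forms apart. CD44 read 82.7, 71.7 and 76.6 CPM in controls and 132, 129.6 and 135 CPM with LYCAT shRNA (log2 0.78, edgeR adjusted p = 2.97e-14). LAPTM4B, which brings LAT1 to lysosomes, stood at log2 -0.03 (edgeR adjusted p = 0.774). ITGB1, an integrin that binds 4F2hc, stood at 0.11 (edgeR adjusted p = 0.195). Over these 3 lists 9 genes rose, against 2 without control libraries 1 and 2 and 3 to 7 with 1 library left out.

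Leaving out 1 library at a time showed which transporter calls rest on few libraries. The calls of SLC7A11, SLC7A5, SLC3A2, SLC7A1, SLC1A5, SLC38A2, SLC6A6 and SLC6A9 passed in all 6 such fits. Across these fits the log2 fold change of SLC7A5 ranged from -0.72 to -0.50, that of SLC3A2 from -0.33 to -0.27 and that of SLC7A11 from -0.27 to -0.16. SLC1A4 was lost in 1 of the 6 and SLC38A1 in 3. SLC7A6 was lost in 5.

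**Figure D5:**
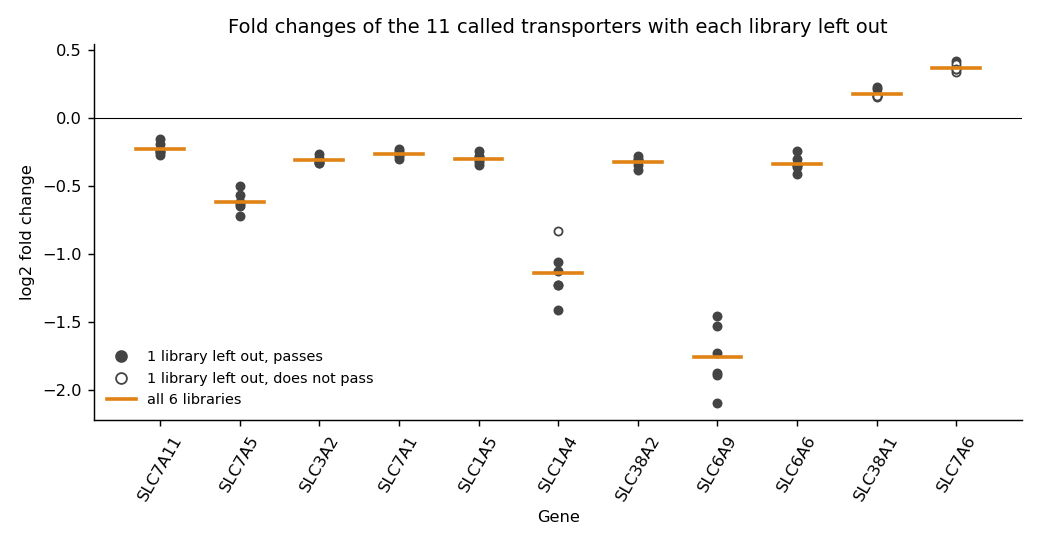
Log2 fold change (y axis) of the 11 transporters that changed, with all 6 libraries (orange line) and with each library left out (points, open where the adjusted p was 0.05 or more). Open points occur for SLC1A4, SLC38A1 and SLC7A6, and no point crosses 0.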

How the data were processed

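The deposited values are counts per gene symbol for 6 libraries, whole numbers that the authors did not normalize. Per the submitters' processing notes the tools were featureCounts 1.5.1, BWA 0.7.15, bcl2fastq 2.17 and Bowtie2, and the builds hg19 and mm10. Their roles and strand use are not given in the sources used here. Coordinates printed are those of the RefSeq promoter table (GRCh38.p14), not of the counting. Columns spelled "cycat" were assigned to LYCAT shRNA by name. Low counts were removed with filterByExpr, leaving 11097 genes with 99.77% of counts. Groups were compared with edgeR 4.0.16 (R 4.3.3; TMM, quasi-likelihood F test, robust=TRUE), with Benjamini-Hochberg adjustment over all tested genes at 0.05. SE is the log2 fold change divided by the root of F, and 95% intervals are 1.96 SE. Transcript lengths came from GENCODE v29 (90.2% of tested genes).

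On simulated counts for this comparison (11097 genes, 200 changed) edgeR recovered 67% of 1.5-fold and 91% of 2-fold changes, with 3.66% false calls. Smaller changes were not simulated, and in the data a larger share of genes, 19.1%, was called. The simulation therefore does not give the recovery or false calls for changes under 1.5-fold. Alternatives were other scalings, filters, DESeq2 1.42.0, limma-voom (limma 3.58.1), a replicate block and left-out libraries. Members and lists were chosen with earlier results of these data known. The naming rule took LCLAT1, ATF4, every tested member, the others by counts, and from each list the changed genes with the smallest adjusted p, up to 4 a direction; other list members named were chosen after their values were seen.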

Additional observations from a re-analysis of the deposited data

How the results depend on the processing

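Of 372 single-member values under alternatives, 342 kept their direction and side of the threshold, 14 lost the call and 16 changed sign. The sign changes were all in members that did not pass. SLC7A2 (0.0015) had -0.013 with library totals, -0.0022 with a mean of at least 5 CPM, -0.00014 with DESeq2, -0.015 with the replicate block, and -0.11 to 0.12 with 1 library left out. With 1 library left out SLC38A7 ranged from -0.10 to 0.045 and SLC38A10 from -0.094 to 0.090. Without control libraries 1 and 2 (chosen after seeing the data) SLC36A4 had -0.069, SLC38A7 0.10 and SLC38A10 -0.11. Transporters that rose numbered 1 with DESeq2 and without control libraries 1 and 2, and 0 to 2 with 1 library left out; those that fell numbered 8 to 10 with 1 library left out. In the 3 lists of related genes together, 9 rose and 1 fell: 5 rose with library totals, 3 with DESeq2, 2 without control libraries 1 and 2 (where 2 fell) and 3 to 7 with 1 library left out; 2 fell without a filter and 1 to 3 with 1 library left out. Over all genes DESeq2 called 635 higher and 558 lower, and the fit without control libraries 1 and 2 called 573 and 556, where the usual fit called 1089 and 1028; the cause was not tested. With the replicate block 1044 rose and 1002 fell, and the same 11 transporters passed; same-numbered libraries had deviations correlated at 0.0051, -0.064 and -0.048, and libraries did not correlate best with their own number, so the numbers were not taken as pairs. LCLAT1 passed under every alternative run (log2 -1.60 to -1.40). Genes with few counts, SLC1A4 and SLC6A9 above all, are limited by depth.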
